A study of Mus musculus with 2 samples.

Results

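The RhoGDI family comprises the GDP dissociation inhibitors Arhgdia (RhoGDI alpha), Arhgdib (RhoGDI beta, also Ly-GDI) and Arhgdig (RhoGDI gamma). Its members were found by gene symbol in a deposited table of GTPase regulators, GTPase-activating proteins (GAPs) and guanine nucleotide exchange factors (GEFs), of mouse podocytes. This regulator table names 168 genes through probe sets of a single gene. All 3 RhoGDI genes are in it, each with 1 probe set: 1451168_a_at for Arhgdia, 1426454_at for Arhgdib and 1448660_at for Arhgdig. Names were used for the probe sets of this table alone, so any other probe set of these genes on the array was not analysed here. Their gene IDs are 192662, 11857 and 14570, and all 3 matched the RefSeq gene table of GRCm38.p6 under the same symbols. In that annotation none of them overlaps another gene. Arhgdia lies between P4hb and Alyref, Arhgdib between Erp27 and Pde6h, and Arhgdig between Pdia2 and Rgs11.

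The small GTPases RhoA, Rac1, Cdc42 and their relatives organise the actin cytoskeleton and act at membranes when bound to GTP. GEFs load them with GTP, GAPs make them hydrolyse it, and RhoGDIs take the lipid-modified GTPase out of the membrane, hold it in the cytosol and block its nucleotide exchange. Podocytes, epithelial cells that wrap the kidney's glomerular capillaries with actin-based foot processes, depend on this balance: inherited loss of ARHGDIA in humans causes nephrotic syndrome, and mice without Arhgdia develop proteinuria. Arhgdia is expressed in most tissues, Arhgdib is best known from blood cells, and Arhgdig is best known from brain.

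The series has 2 samples, each measured on 1 Affymetrix 430v2 murine genome array, from a podocyte line of a wildtype mouse that carries the Immorto transgene, which encodes a temperature-sensitive large T antigen that immortalises cells under permissive conditions. Undifferentiated cells grew at 33 °C on collagen I with interferon gamma, and the permissive medium contained 10% serum and 100 U/ml of the cytokine. Differentiated cells had spent at least 10 days at 37 °C in 5% serum without interferon gamma and had stopped dividing. Temperature, serum, interferon gamma, cell division and RNA kit (Qiagen for undifferentiated, Ambion for differentiated cells) all differ between the arrays and cannot be told apart. With 1 array per group, no test over samples can be made, no p-value is given, and every difference below compares 1 reading per group of 1 cell line. Podocyte, leukocyte and neuron markers were not analysed here, because no probe set was named for any of them. The labelled cell type was therefore not checked.

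Signals were deposited in 2 tables. The regulator table gives a linear signal, a standard error (SE) of the probe model and a present or absent call per group. The value table gives a signal alone, for the whole array. Their undifferentiated columns are the same for 374 of 374 probe sets (within 0.005 units), and their differentiated columns agree for 0 of 374. Where the second set of differentiated signals comes from is not stated in the labels or files used here. Each gene below therefore has 1 undifferentiated and 2 differentiated readings. The 2 comparisons share the undifferentiated array and are not independent of each other.

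Arhgdia, the general inhibitor of the family, had lower signals in differentiated cells in both tables. Its signal was 5940 ± 520 (model SE) in undifferentiated cells, 4523 ± 283 in differentiated cells of the regulator table, and 3035 in differentiated cells of the value table. The order of the readings is thus undifferentiated first, and the ranges of 2 model SE around the first and the second overlap (4899 to 6980 and 3958 to 5088). On the log2 scale the difference, differentiated minus undifferentiated, was -0.39 ± 0.16 in the regulator table, a signal 1.31-fold lower. This is 2.53 times its model SE, a technical error over the probes of an array that holds no variation between cultures. Of the 129 genes called present in both groups there, 59.7% differed by more than 2 model SE, so a difference of this kind was common. As deposited in the value table, Arhgdia was 1.96-fold lower, a log2 difference of -0.97, and after quantile normalization of the 2 arrays it was 1.56-fold lower (-0.64). In bulk RNA, fewer cells that express a gene and less of its RNA per cell cannot be told apart.

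Arhgdib, the RhoGDI known from leukocytes, was called present in both groups at low signals and was higher in differentiated cells of the regulator table. It read 99.9 ± 27.2 in undifferentiated cells, 210 ± 30.1 in differentiated cells of the regulator table and 123 in the value table. The undifferentiated reading is the lowest of the 3, and the value table's differentiated reading lies within 1 model SE of it. The undifferentiated signal was 1.94 times a background level, the 95th percentile over absent calls in that column (51.5), and the differentiated signal was 3.07 times that of its own column (68.3). In undifferentiated cells its SE was 27.2% of the signal, above those of Arhgdig (11.6%) and Arhgdia (8.76%), and of 284 present probe sets 29 had a larger relative SE. In differentiated cells the relative SE was 14.4% for Arhgdib and 18.5% for Arhgdig. The log2 difference was 1.07 ± 0.44 in the regulator table, a 2.10-fold higher signal. The value table gave 0.30 as deposited and -0.040 after quantile normalization, so its direction there depends on the scaling.

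Arhgdig, the family member studied mainly in brain, had lower signals in differentiated cells, by a size that differed widely between the tables. Its readings were 263 ± 30.6 in undifferentiated cells, 192 ± 35.5 in differentiated cells of the regulator table and 64.5 in the value table. The ranges of 2 model SE of the first and the second overlap (202 to 324 and 121 to 263), while the third lies below both. The log2 difference was -0.45 ± 0.32 in the regulator table, 1.44 times its model SE. By the value table Arhgdig was 4.08-fold lower as deposited (-2.03) and 5.07-fold lower after quantile normalization (-2.34). After normalization its differentiated signal was 52.1, not far above the floor of 37.6 below which values were not read.

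**Figure D1:**
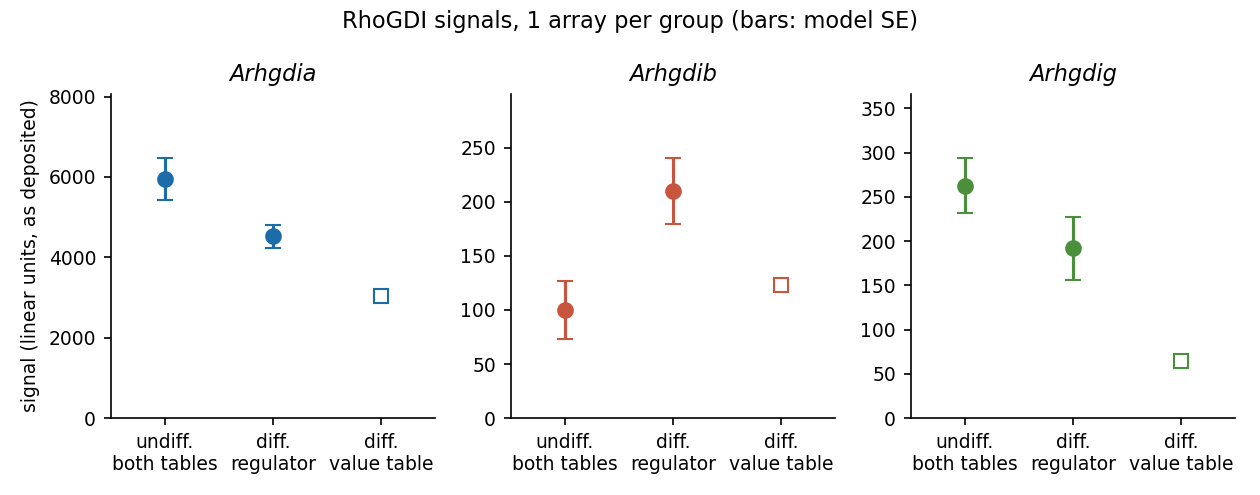
Signals of the 3 RhoGDI genes as deposited, on linear axes that start at 0 and differ between panels. Filled circles are signals with their model SE, of 1 array each, and open squares are the value table's differentiated signals, which have no SE. The differentiated readings of Arhgdia and Arhgdig lie below the undifferentiated ones, and that of Arhgdib lies above in both tables before normalization.

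Set against the other features, the RhoGDI genes were moderate in the regulator table. Of the 3 probe sets, 1 (Arhgdib) was at least 2-fold higher in differentiated cells, where 17.6% of the 313 measured probe sets of that table were, and 0 were at least 2-fold lower, where 7.67% were. Among the 151 measured genes of the table, 23 had a higher difference than Arhgdib. Arhgdia and Arhgdig lay close together at the other end, with 31 and 25 genes below them. In the value table, 0 of the 3 exceeded 2-fold upwards, against 21.1% of 31831 measured probe sets, and 1 (Arhgdig) was at least 2-fold lower, against 22% of them. There Arhgdib lay at the middle of the array, with 49.5% of probe sets below it, Arhgdia had 30.4% below it and Arhgdig 5.91%. With 3 members, counts of 0 or 1 are near these shares.

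**Figure D2:**
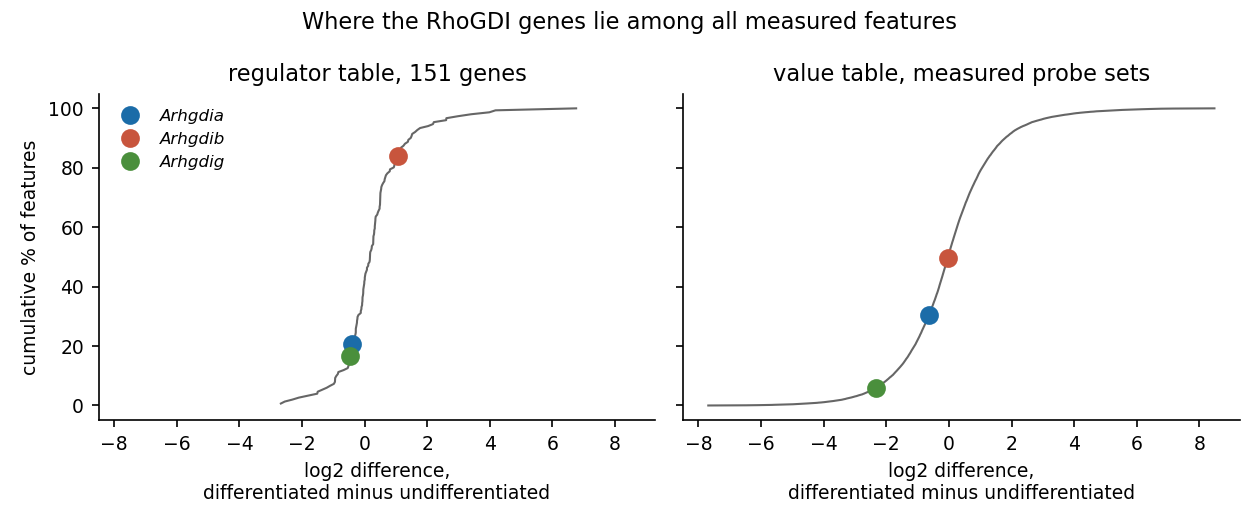
Cumulative share of features, in percent, by log2 difference between differentiated and undifferentiated cells, for the 151 measured genes of the regulator table and the measured probe sets of the value table after quantile normalization. Coloured points mark the RhoGDI genes: Arhgdig moves from 16.6% in the first to 5.91% in the second, and Arhgdib from 84.1% to 49.5%.

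The difference of a gene also depends on how the arrays are scaled to each other. In the regulator table, with the medians of both columns set equal every difference fell by 0.66 on the log2 scale, which took Arhgdia to -1.05, Arhgdig to -1.12 and Arhgdib to 0.41. Under this scaling 2 of the 3 were at least 2-fold lower and 0 higher. It also took the median of all measured probe sets to -0.50. Their share past 2-fold under it is not given, so these counts have no background beside them. Equal 75th percentiles and quantile normalization also left Arhgdib under 2-fold, at 0.81 and 0.71. Relative to the median of all measured probe sets, which was 0.16 as deposited, Arhgdia stood at -0.55, Arhgdib at 0.91 and Arhgdig at -0.61. On the value table's arrays Arhgdia and Arhgdig stayed below 0 under every scaling run, from -1.52 to -0.050 for Arhgdia and from -2.58 to -1.11 for Arhgdig. Arhgdib ran from -0.25 to 1.22. The values nearest to 0 for Arhgdia and highest for Arhgdib came from setting the median signals of 18 hybridization controls equal, which multiplied the differentiated array by 1.89. These are bacterial and phage transcripts added to the sample before hybridization. All 18 read lower on the differentiated array, and the median of their single ratios was 1.74-fold.

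**Figure D3:**
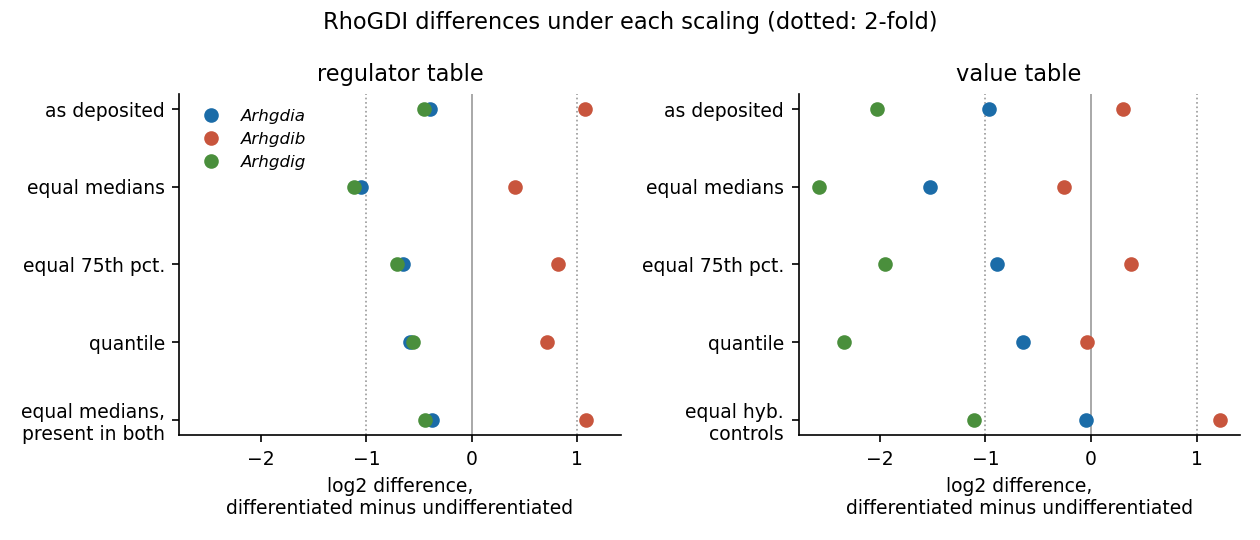
Log2 differences between differentiated and undifferentiated cells for the RhoGDI genes under each scaling, in the regulator table and in the value table (floored at its 40th percentile). The solid line marks 0 and dotted lines mark 2-fold; Arhgdib lies to the right of Arhgdia and Arhgdig under each scaling shown, and changes side of 0 in the value table.

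The ratio of 2 genes on the same array does not change when that array is multiplied by a factor, so it is free of such a scaling. Differences between probe sets and background at low signals remain in it. In the regulator table the ratio of Arhgdib to Arhgdia was 2.76-fold higher in differentiated than in undifferentiated cells, a log2 change of 1.46 ± 0.47 (model SE). As deposited in the value table it was 2.41-fold higher (1.27), and with quantile normalization, which is no single factor, 0.60 on the log2 scale. The ratio of Arhgdib to Arhgdig was 2.88-fold higher in the regulator table (1.52 ± 0.54) and 5.02-fold higher in the value table (2.33). Both changes exceed 2 model SE. The ratio of Arhgdig to Arhgdia gave different answers: -0.061 ± 0.35 in the regulator table, and -1.06 in the value table, where Arhgdig was the lower. The balance of probe set signals thus shifted towards Arhgdib between these arrays, which does not tell which of the genes changed. Each ratio rests on 1 probe set per gene, and the Arhgdib signals were low. Probe sets of a single gene can also differ, as given below for Gdi2.

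**Figure D4:**
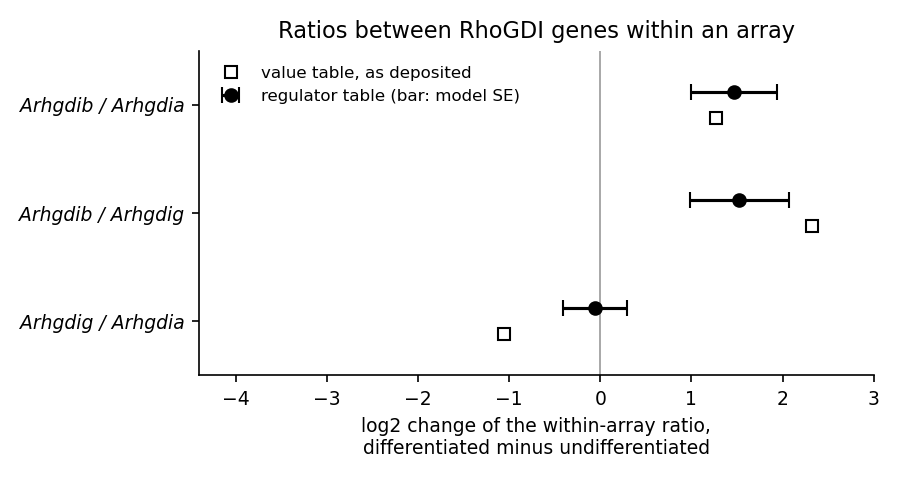
Log2 change of the ratio of 2 RhoGDI genes between differentiated and undifferentiated cells. Circles with bars are the regulator table with its model SE and open squares are the value table as deposited; both ratios with Arhgdib on top lie above 0, between 1.27 and 2.33.

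The 3 genes differed in how far the 2 differentiated readings stood apart. All 3 read lower in the value table than in the regulator table, as did 166 of the 264 probe sets called present in both groups. In either direction, 131 of the 264 (49.6%) stood at least 2-fold apart. The log2 ratio of the regulator table's reading to the value table's had quartiles of -0.49 and 1.56. Its median over the 264 was 1.41-fold. Arhgdia (1.49-fold) and Arhgdib (1.71-fold) were near that median, and 127 and 111 of the 264 had a larger gap in this direction. Arhgdig (2.98-fold) was further out, with 65 of 264 above it. The gaps were 5.26, 2.88 and 3.59 times the model SE of the differentiated signal for Arhgdia, Arhgdib and Arhgdig. On the value table's arrays the ratio of 3′ to 5′ signal of Gapdh was 0.868 on the undifferentiated and 3.77 on the differentiated array, and that of beta-actin 1.09 and 1.54. This is a measure of RNA or labelling quality, and its part in the RhoGDI differences was not tested.

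Gdi2 does for Rab GTPases of vesicle traffic what RhoGDIs do for RhoA and its relatives, and the Rab escort proteins Chm and Chml present new Rabs to the enzyme that adds their lipid. Of these 3 genes, 0 passed 2-fold in either direction in the regulator table, where 18.5% of measured genes were higher and 6.62% lower by as much, so with 3 genes a count of 0 is near the background. The value table after quantile normalization had 1 of the 3, Chm, at least 2-fold higher, against 21.1% of its 31831 measured probe sets. With 3 genes this count is near that share too. Gdi2 has 6 probe sets called present, and their log2 differences lay between -0.078 and 0.14 in the regulator table but between -2.82 and -0.17 in the value table as deposited. This spread within 1 gene is at least as wide as that between Arhgdib and Arhgdig there. A further Gdi2 probe set was called absent in both groups (13.6 and 19.6 units) and was not measured in the regulator table. In differentiated cells of the value table it read 179, a log2 difference of 3.72 as deposited and 2.17 after quantile normalization. Within the regulator table, the ratio of Arhgdib to Gdi2 had a log2 change of 1.15 ± 0.45 from undifferentiated to differentiated cells, that of Arhgdia to Gdi2 one of -0.31 ± 0.18 and that of Arhgdig to Gdi2 one of -0.38 ± 0.33. As deposited in the value table these changes were 0.69, -0.58 and -1.64. All these ratios use 1 Gdi2 probe set, that with the highest mean signal, at -0.39 in the value table as deposited. The lowest Gdi2 probe set, at -2.82 there, lies below Arhgdia (-0.97) and Arhgdig (-2.03). Against it both ratios would rise, so in the value table these 2 signs depend on the Gdi2 probe set. Chm had 0.49 and 0.41 in its 2 probe sets of the regulator table, and 1.53 and 2.26 in the value table as deposited. Chml had -0.26 and 0.090 in the former, and 0.64 and 0.012 in the latter. Its second probe set, though called present, read 22.3 and 23.8 units in the regulator table, under the background levels of 51.5 and 68.3. In differentiated cells of the value table that probe set read 22.5, and after normalization it was not measured there.

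**Figure D5:**
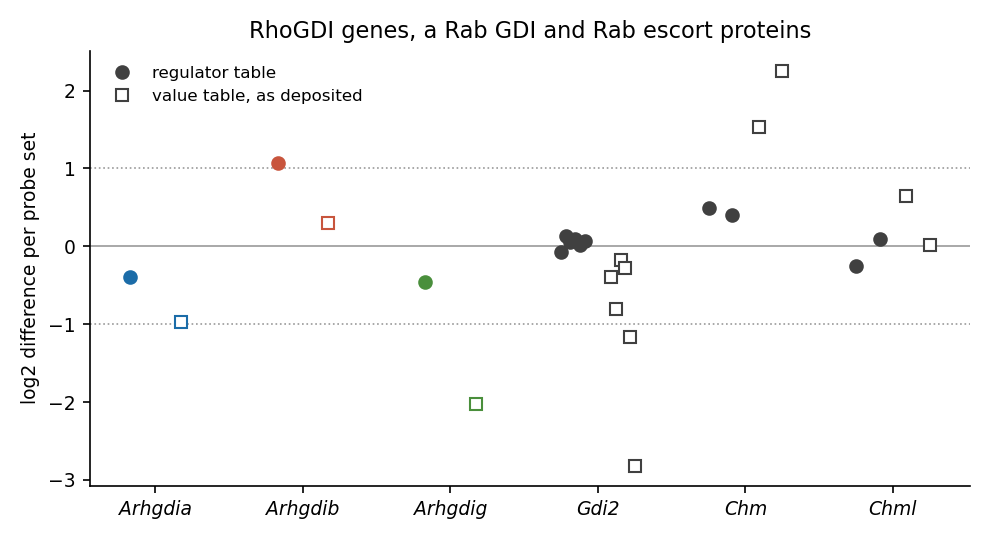
Log2 difference between differentiated and undifferentiated cells for each probe set of the RhoGDI genes, of Gdi2 and of the escort proteins Chm and Chml that was called present in at least 1 group. Filled circles are the regulator table as deposited and open squares are the value table as deposited; the 6 Gdi2 probe sets lie within -0.078 to 0.14 in the first and spread from -2.82 to -0.17 in the second.

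RhoGDIs share their GTPases with the GAPs and GEFs of RhoA, Rac1, Cdc42 and their relatives. Of 56 such GAPs listed, 48 are in the regulator table and 44 were measured. In differentiated cells 9 of the 44 exceeded the undifferentiated level by 2-fold or more, against 18.5% of all 151 measured genes, and 2 lay below it by as much, against 6.62%. Their median log2 difference was 0.086, beside 0.17 over all measured genes. The highest were Arhgap24 (4.18 ± 0.15), Srgap3 (3.40 ± 0.23) and Chn2 (2.03 ± 0.26), which all have a GAP domain for Rac or its relatives. The lowest were Arhgap19 (-2.55 ± 0.39), Racgap1 of the cytokinesis machinery (-2.10 ± 0.28) and Arhgap18 (-0.85 ± 0.27). The value table after quantile normalization ordered these 6 otherwise, with 2.98 for Arhgap24, 1.52 for Srgap3, 2.79 for Chn2, 0.0014 for Arhgap19, -0.43 for Racgap1 and -3.76 for Arhgap18. Of 69 listed GEFs of these GTPases, 5 were measured. Arhgef19 (2.21 ± 1.13) was past 2-fold but within 2 model SE, and the other 4 lay under 2-fold: Arhgef12 (0.53 ± 0.18), Plekhg6 (0.27 ± 0.36), Arhgef1 (-0.28 ± 0.14) and the Rac GEF Tiam2 (-0.94 ± 0.10). Of these 5, the value table gave 0.91 for Arhgef19, 0.036 for Arhgef12, -1.79 for Plekhg6, which turns its sign, -2.08 for Arhgef1 and -2.94 for Tiam2. The value table had 9 of 42 measured GAPs of the list up by 2-fold or more and 15 down by as much, against 21.1% and 22% of all its measured probe sets. The median of the 42 was -0.47, beside -0.028 over all. Of 6 of the GEFs measured there 1 was up and 3 were down, with a median of -0.88. The GTPases themselves and proteins that release them from RhoGDIs, such as the ezrin group, were not analysed here.

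Genes with the most similar readings were sought among the 150 other genes called present in at least 1 group, by the distance over the 3 log2 signals after centring each gene on its mean. The nearest to Arhgdia was Abr (distance 0.078), a GAP of Rac, at 107, 87.1 and 58.1 units in undifferentiated cells and in the differentiated columns of the regulator table and the value table. Next came Arhgap31 (0.14) and Rgs9 (0.14). Nearest to Arhgdib was Rasal2 (0.068), a Ras GAP, at 350, 735 and 457 units, before Acap2 (0.10) and Tbc1d9b (0.20). Nearest to Arhgdig was Git1 (0.15), an Arf GAP, at 296, 219 and 83.2 units, before Arhgef1 (0.16) and Arfgap1 (0.16). With 3 readings per gene these distances describe the arrays alone.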

How the data were processed

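Per the labels' protocols, biotinylated cRNA was hybridized to Affymetrix 430v2 arrays, and dChip is named for the differentiated sample. Its version, model options and between-array normalization were not given in the sources used. The authors deposited linear intensity values in both tables. The SE is read as the probe model's error. Here, log2 differences of the regulator table were taken as deposited, with the SE of both signals propagated; a probe set was measured where it was called present in at least 1 group, and an absent group was set to the higher of its own signal and that group's lowest present signal. For the value table, 45037 probe sets without 64 control probe sets were raised to at least 1, quantile-normalized on the log2 scale and floored at the 40th percentile (37.6). 1 probe set stood for a gene, that with the highest mean log2 signal. The 8 probe sets of several genes were left out of gene counts. Of 168 gene IDs, 167 matched RefSeq. Sizes are called at 2-fold. Named genes were the family, 3 Rab GDI and escort genes (1 further gene of that list is not reported here), the 3 highest and 3 lowest GAPs and GEFs of RhoA, Rac1, Cdc42 and their relatives and the 3 nearest genes per member. The members and lists were chosen with earlier results of these data known. Of 9 lists, those of these GTPases, RhoGDI partners and podocyte, leukocyte and neuron markers had 0 named probe sets. Alternatives were other scalings, floors, pseudocounts, thresholds and the other differentiated column. Normalization and differences were tested on simulated data. The number of arrays limits the precision. Python 3.11.15, numpy 2.4.6 and pandas 2.3.3 were used.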

Additional observations from a re-analysis of the deposited data

How the results depend on the processing

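The 2-fold call of Arhgdib in the regulator table ended under equal medians (0.41), equal 75th percentiles (0.81), quantile normalization (0.71), a pseudocount of 50 (0.79) and the value table's differentiated column (0.30). The count of members at least 2-fold higher was then 0 under each of the 3 scalings, in place of 1. A value counted as moved when it left the range of 1 model SE in the regulator table, or changed by more than 1.5-fold in the value table, which has no SE. In the regulator table Arhgdia moved from -0.39 to -1.05 with equal medians, -0.65 with equal 75th percentiles, -0.58 with quantile normalization and -0.97 with the value table's differentiated column. Arhgdig moved from -0.45 to -1.12 with equal medians and to -2.03 with that column. Equal medians put 2 members at least 2-fold lower, in place of 0. Shares of all measured probe sets under the alternatives are not given, so these counts and those below have no background beside them. The value table's Arhgdia moved from -0.64 to -1.52 with equal medians, and Arhgdig from -2.34 to -1.14 with a floor at the 60th percentile and -1.62 with a pseudocount of 50. With equal medians 2 members were at least 2-fold lower there, in place of 1. With the threshold set at 1.5-fold in place of 2-fold, 2 members were lower by at least 1.5-fold. Equal medians of the hybridization controls, a scaling chosen after seeing the data, gave the value table differences of -0.050 for Arhgdia, 1.22 for Arhgdib and -1.11 for Arhgdig. Equal medians over probe sets present in both groups, also chosen after seeing the data, gave -0.38, 1.08 and -0.44 in the regulator table. The cause of these moves was not tested beyond what each scaling or floor does by construction. Of 63 values under alternatives, 43 did not move, 20 moved and 0 called values changed sign. Some of the 63 could not move, such as the means over probe sets, and counts have no sign, so this tally does not measure robustness. Arhgdib, under 2-fold in the main result of the value table, lay above 0 in 3 of 7 alternatives there and below 0 in 4. Each gene has 1 named probe set, so the mean over probe sets is the same value. Arhgdib was not measured in the value table with the floor at the 60th percentile. No paired analysis was possible because each group has 1 array and no replicate number. Low signals limit Arhgdib and, in the value table, Arhgdig.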

Other observations

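Rgs11, a regulator of heterotrimeric G proteins, is the neighbour of Arhgdig in the RefSeq annotation and the only neighbour of a RhoGDI gene in the regulator table. It was looked up for its position. Its probe set read 54.5 in undifferentiated cells, where it was called present, and 40.1 in differentiated cells, where it was called absent. The 95th percentiles over absent calls were 51.5 and 68.3 in these columns, so both readings lie near or under background. In the regulator table the log2 difference of Rgs11 was -0.44, beside -0.45 for Arhgdig. The differentiated reading of Rgs11 in the value table was 127, a log2 difference of 1.23 as deposited, while that of Arhgdig was -2.03. The 2 tables thus gave opposite directions for Rgs11.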
